A study of Arabidopsis thaliana with 21 samples.

Results

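The FT and TFL1 family of Arabidopsis thaliana comprises 6 genes, all of which were found by locus among 27444 nuclear protein-coding genes. They are FLOWERING LOCUS T (FT, AT1G65480), TWIN SISTER OF FT (TSF, AT4G20370), TERMINAL FLOWER 1 (TFL1, AT5G03840), the CENTRORADIALIS homologue ATC (AT2G27550), BROTHER OF FT AND TFL1 (BFT, AT5G62040) and MOTHER OF FT AND TFL1 (MFT, AT1G18100, E12A11 in RefSeq). Each gene was described by every deposited region that touched it or lay within 5 kb of either end. The 2 florigen-like genes, FT and TSF, were then set against the 3 TFL1-like genes, TFL1, ATC and BFT, with MFT given apart.

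The family encodes small proteins of the phosphatidylethanolamine-binding fold. Those of the florigen-like and TFL1-like genes act through the bZIP proteins FD and FDP. FT and TSF are made in the phloem of leaves and move to the shoot apex, where they promote flowering, while TFL1, ATC and BFT act against flowering and TFL1 keeps the inflorescence meristem indeterminate. MFT is a gene of seeds and seed germination. Polycomb repressive complex 2 (PRC2) trimethylates lysine 27 of histone H3 (H3K27me3), a mark of silenced developmental genes, and FT is among the best known of its targets.

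The study used chromatin immunoprecipitation followed by sequencing (ChIP-seq) on plants aged 30 h, kept on plates in long days (16 h light, 8 h dark). Its 21 samples form 7 groups of 3 biological replicates. FIE, a WD40 subunit of PRC2, was precipitated with anti-HA from C24 plants in which a pFIE:FIE-HA transgene stood in a fie-11 background, and the C24 input came from the same line. AZF1, a C2H2 zinc finger protein, and BPC1, a BASIC PENTACYSTEINE protein that binds GA repeats, were precipitated with anti-Myc from gAZF1-Myc and gBPC1-Myc plants in Col. The Col input carried gAZF1-Myc, so BPC1 was set against an input of the other transgenic line. H3K27me3 and total H3 were profiled in Col without a transgene. FIE and the other lists therefore come from different accessions at every gene described here.

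On the nuclear chromosomes there were 5006 regions for FIE, 4464 for AZF1, 2622 for BPC1 and 3940 for H3K27me3, in 1 list each. The lists give no values for single replicates and no read counts, so replicate error cannot be stated, the depth behind a region is unknown and no difference between genes was tested. Fold enrichment is the authors' ratio of ChIP over control for a region and is read only within its own list. Regions with a −log10 q below 10 are not in the lists, so a gene without a region is one without a listed region, not one shown to be free of the protein or mark. Whole plants were used, so a mark in fewer cells and a weaker mark in every cell cannot be told apart. All 6 genes lay in windows of 1 Mb with 244 to 299 protein-coding genes. The table used has no strand, so sides are given as lower or higher coordinates on the chromosome (TAIR10).

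Of the family, 3 genes had an H3K27me3 region within 5 kb, FT, TSF and TFL1, and in each of them the region covered 100% of the gene. ATC, BFT and MFT had no H3K27me3 region in that window. Over all protein-coding genes, 44.9% had an H3K27me3 region within 5 kb and 11.8% were covered over their whole length. FIE regions lay within 5 kb of TFL1 and MFT, 2 of 6 genes, where 23.5% of all genes had one. AZF1 regions lay within 5 kb of TFL1 alone, against 24.9% of all genes, and BPC1 regions within 5 kb of TFL1 and ATC, against 14.9%. With 6 genes, counts of 1 or 2 are near these background shares and are given as a description of the loci. The family thus showed 5 arrangements. H3K27me3 alone was found at FT and TSF, as at 20.8% of all genes, and all 4 lists at TFL1, as at 4.30%. BPC1 alone was found at ATC, FIE alone at MFT and no region at BFT.

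**Figure D1:**
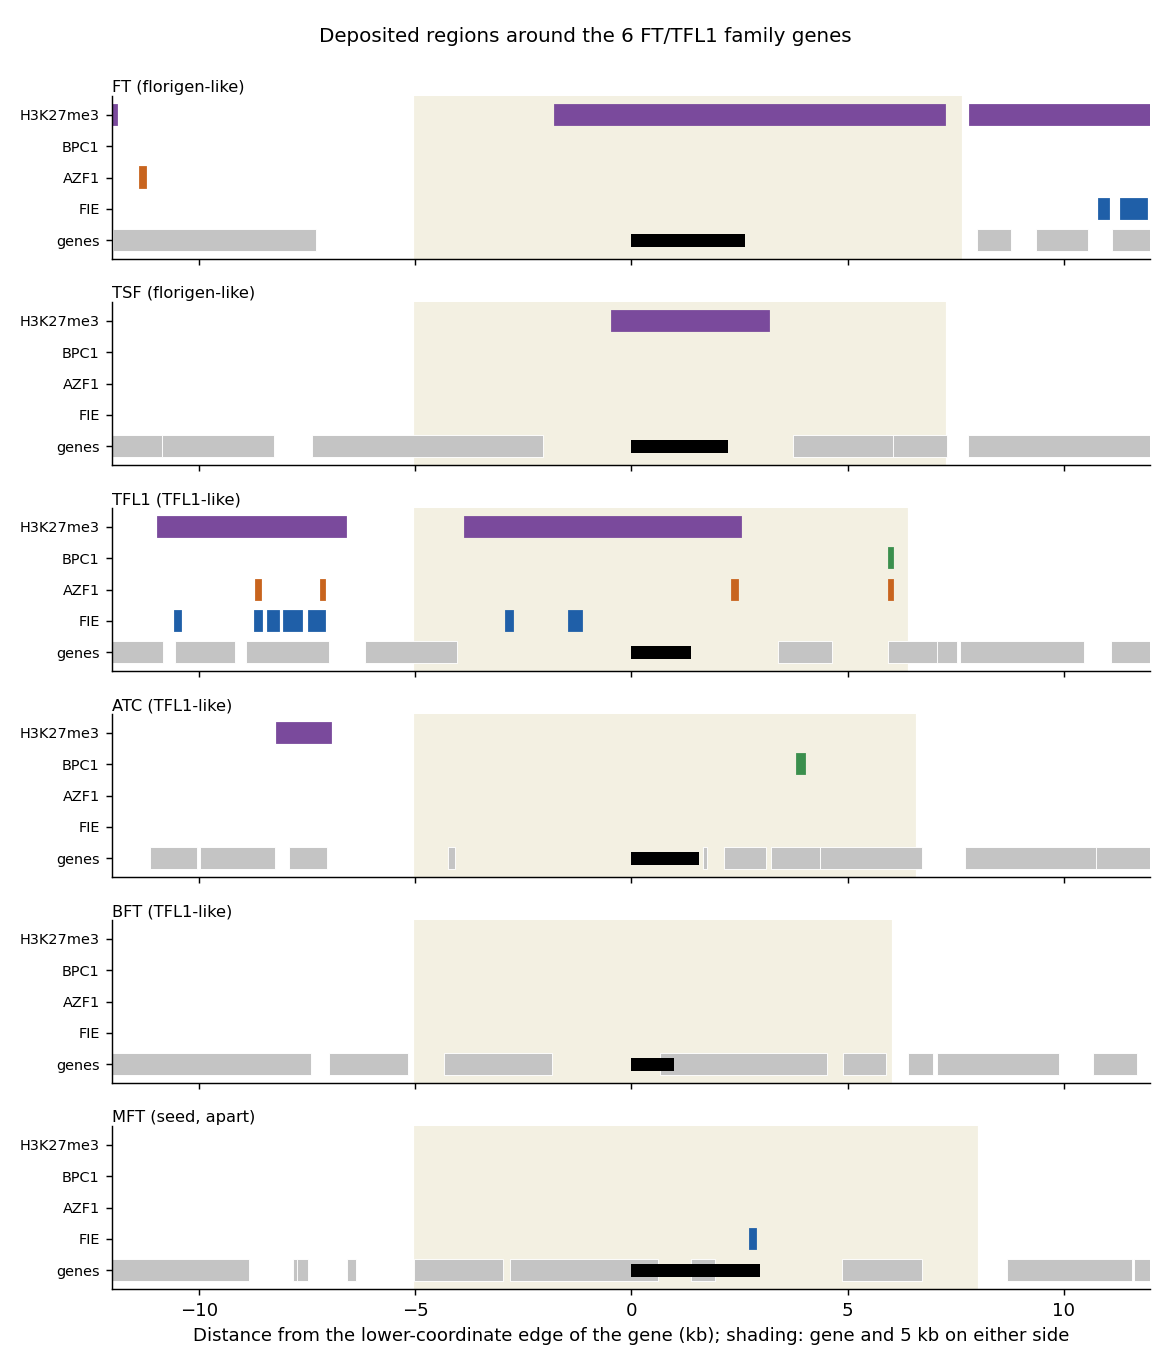
Regions of the 4 lists around each family gene, with distance in kb from the lower-coordinate edge of the gene on the horizontal axis and the list on the vertical axis. Black bars are the family gene, grey bars other genes, coloured bars deposited regions, and shading marks the gene with 5 kb on either side. H3K27me3 spans the whole of FT, TSF and TFL1, and FIE, AZF1 and BPC1 regions are in the shaded part of TFL1 but not in that of FT or TSF.

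FT lay inside a broad H3K27me3 region of 9028 bp (chromosome 1, 24329596 to 24338623). The region began 1777 bp before the lower-coordinate end of the gene and ran on for 4624 bp past the other end, so the 2627 bp gene made up 29.1% of it. Its fold enrichment was 2.97, with 48.0% of H3K27me3 regions lower, and its −log10 q was 12.7. It was wider than 91.9% of the list, 3.03 times the median width of 2980.5 bp. The FT region was thus wide, with a fold near the middle of its list. No FIE, AZF1 or BPC1 region overlapped it. Of the 318 H3K27me3 regions at least as wide, 56.0% overlapped FIE and 36.2% overlapped none of the 3 proteins.

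FT was the only annotated gene that its region touched. Of the H3K27me3 regions at least as wide as that of FT, 18 of 318 (5.66%) touched a single gene, against 46.1% of all 3940 regions. The neighbouring protein-coding genes were far off, FAS1, a subunit of chromatin assembly factor 1, at 7282 bp and AT1G65481 at 6737 bp. After a gap of 574 bp another H3K27me3 region followed on the higher-coordinate side (chromosome 1, 24339198 to 24360834), 21637 bp wide with a fold of 3.05, which touched 11 genes. Its edge was 5199 bp from FT, just outside the window. The FIE regions nearest to FT were in this second domain, at 8175 bp with a fold of 4.74 and at 8688 bp with a fold of 6.04. The nearest AZF1 region was 11223 bp away, in FAS1, and the nearest BPC1 region 22439 bp away.

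TSF, the closest relative of FT, had a smaller H3K27me3 region of lower fold (chromosome 4, 11000314 to 11003961). It measured 3648 bp and extended 457 bp before and 951 bp past the gene, which filled 61.4% of it. The fold was 2.71, with 11.6% of the list lower. Its −log10 q of 10.1 was close to the floor of the list, with 2.11% of regions below it. The TSF region is therefore among the least significant that the deposited list retains. It touched no other gene. LSD1, a zinc finger regulator of cell death 1493 bp away, lay outside it, and the next H3K27me3 regions were 30.9 kb and 48.7 kb from its edges. No FIE, AZF1 or BPC1 region was listed within 5 kb of TSF. Of the 1585 H3K27me3 regions at least as wide as that of TSF, 47.9% overlapped none of the 3 proteins. The nearest FIE region was 29418 bp from TSF and the nearest BPC1 region 29430 bp, both at a place where FIE, AZF1 and BPC1 regions overlapped, while the nearest AZF1 region lay 23367 bp away on the other side.

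TFL1 differed from FT and TSF in that proteins were listed around its H3K27me3 region. The region measured 6363 bp (chromosome 5, 1020661 to 1027023), with 82.9% of the list narrower. Its fold of 3.00 had 52.3% of the list lower and its −log10 q was 13.1. It ran from 3839 bp before the gene to 1151 bp past it, and the 1373 bp gene made up 21.6% of it. As at FT and TSF, the region touched no other gene. Of the 675 H3K27me3 regions at least as wide as that of TFL1, 53.9% overlapped FIE and 37.6% overlapped none of the 3 proteins.

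At TFL1, 2 FIE regions lay on the lower-coordinate side, both inside the H3K27me3 region and both outside annotated genes. The nearer was 1153 bp from the gene (1023053 to 1023347, 295 bp), with a fold of 5.25, above 67.0% of the FIE list. The farther was 2742 bp from the gene (1021592 to 1021758, 167 bp), with a fold of 3.86, above 18.9% of the list. Their −log10 q values were 13.0 and 11.3, below the list median of 15.5. TFL1 was the only family gene with overlapping FIE and H3K27me3 regions within 5 kb, an arrangement found at 14.7% of all genes. Because the FIE regions were more than 1 kb away, TFL1 counts as a gene without FIE when only 1 kb on either side is read. No FIE region touched the gene itself.

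AZF1 was listed at 2 places on the other side of TFL1. The nearer was 960 bp from the gene (1026832 to 1026959), inside the H3K27me3 region and outside any gene, with a fold of 2.82 and no FIE or BPC1 region in common. The farther was 4585 bp from the gene (1030457 to 1030558) with a fold of 2.72. It shared 100 bp with the only BPC1 region near TFL1 (1030456 to 1030556, fold 2.68), and their summits were 16 bp apart. That shared place lay 3433 bp beyond the end of the H3K27me3 region, within the non-coding genes AT5G00940 and AT5G00330. Each of these 3 factor regions was below the median fold of its list, with 40.7%, 32.3% and 34.8% of regions lower. FIE and the factors thus lay on opposite sides of TFL1 and overlapped nowhere within 5 kb of it. Per the series design the control of both factors was Col input, and both were pulled down by a Myc tag; the part of these common features in the joint region was not tested.

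ATC, which encodes a mobile repressor of flowering, had a BPC1 region and nothing else within 5 kb. That region lay 2275 bp from the gene on the higher-coordinate side, within AT2G27580 (chromosome 2, 11777021 to 11777205, 185 bp). Its fold of 4.76 exceeded that of 96.8% of BPC1 regions, and its −log10 q of 24.4 exceeded 94.4%. It was the only one of the 7 protein regions near the family above the 75% point of its list by fold. It overlapped no FIE, AZF1 or H3K27me3 region, and AT2G27570 and a tRNA gene lie between it and ATC. BPC1 alone within 5 kb was found at 1.20% of genes. The nearest H3K27me3 region was 6942 bp from ATC, over AT2G27535, and the nearest FIE region 76.5 kb away, farther than for 93.7% of genes.

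BFT, a gene linked to flowering under salt stress, had no region of any list within 5 kb, like 37.7% of protein-coding genes. Its nearest regions were 29.2 kb away for FIE, 37.5 kb for AZF1, 40.8 kb for BPC1 and 35.8 kb for H3K27me3. For H3K27me3 this was farther than for 91.9% of genes. The 996 bp BFT gene overlaps OXA1, which likewise had no region within 5 kb.

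MFT had a FIE region inside the gene without H3K27me3. The region was 135 bp wide (chromosome 1, 6229960 to 6230094) and ended 100 bp short of the higher-coordinate end of the gene. It was the only protein region that touched a family gene. Its fold was 3.40, with 6.53% of the FIE list lower, and its −log10 q of 10.1 had 3.20% of the list lower. Like the H3K27me3 region of TSF it stood near the floor of its list. The nearest H3K27me3 region was 10063 bp from MFT and held another FIE region, with a fold of 4.21. FIE alone within 5 kb was found at 3.51% of genes.

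**Figure D2:**
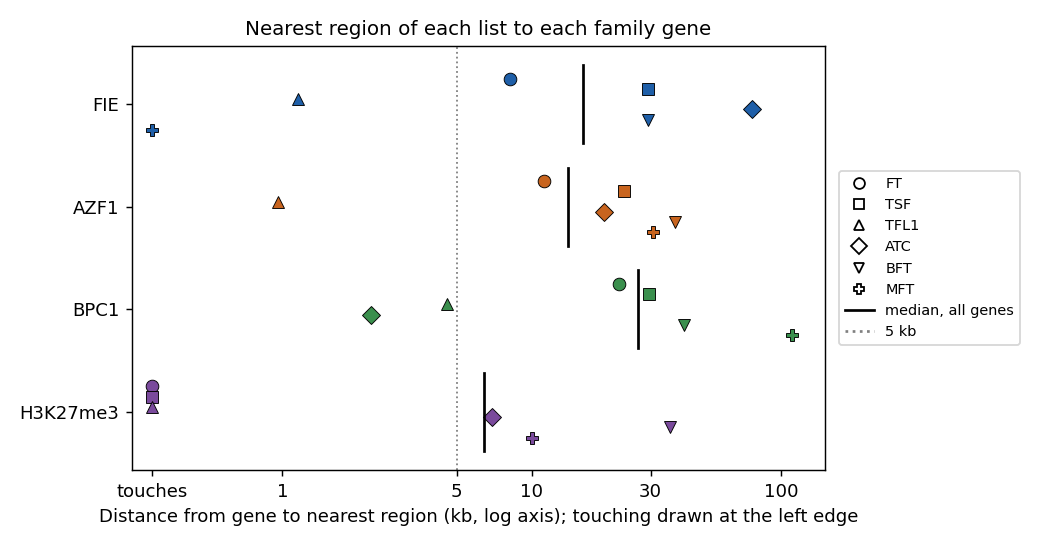
Distance in kb, on a log axis, from each family gene to the nearest region of each list, with genes that a region touches drawn at the left edge. Symbols are the 6 genes, black lines the median over all protein-coding genes (16.0 kb for FIE, 14.0 kb for AZF1, 26.6 kb for BPC1 and 6.46 kb for H3K27me3) and the dotted line 5 kb. TFL1 is nearer than the median in all 4 lists and BFT farther in all 4.

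Set side by side, the florigen-like genes had 2 H3K27me3 regions and 0 protein regions over 2 genes, and the TFL1-like genes had 1 H3K27me3 region and 6 protein regions over 3 genes. The split did not run cleanly between the branches. Of those 6 protein regions, 5 were at TFL1 and 1 was near ATC, and BFT had 0. The place shared by AZF1 and BPC1 at TFL1 counts as 2 of the 5. Over all genes, 41.4% had at least 1 FIE, AZF1 or BPC1 region within 5 kb and 44.9% an H3K27me3 region. Counts over 2 and 3 genes are too small to set apart from these shares. The mean share of the gene body under H3K27me3 was 100% for FT and TSF and 33.3% for the TFL1-like genes, where the latter is 100% at TFL1 with 0% at ATC and BFT. In the lists, TFL1 was thus nearer to FT and TSF in its mark than to ATC and BFT. Of these genes TFL1 alone had FIE and AZF1 regions within 5 kb. BPC1 was also listed near ATC, with a fold of 4.76 against 2.68 at TFL1. With only regions above the median −log10 q of each list, TFL1 kept AZF1 but neither FIE nor BPC1. Members are different genes and not replicates, so no test was made.

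Among the 3228 protein-coding genes wholly covered by H3K27me3, 45.0% had a FIE region within 5 kb, 26.1% an AZF1 region and 24.4% a BPC1 region. None of the 3 was within 5 kb in 42.7% of them, which is the state of FT and TSF, and all 3 were present in 11.6%, which is the state of TFL1. A FIE region touched 27.1% of the wholly covered genes and none of FT, TSF and TFL1.

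**Figure D3:**
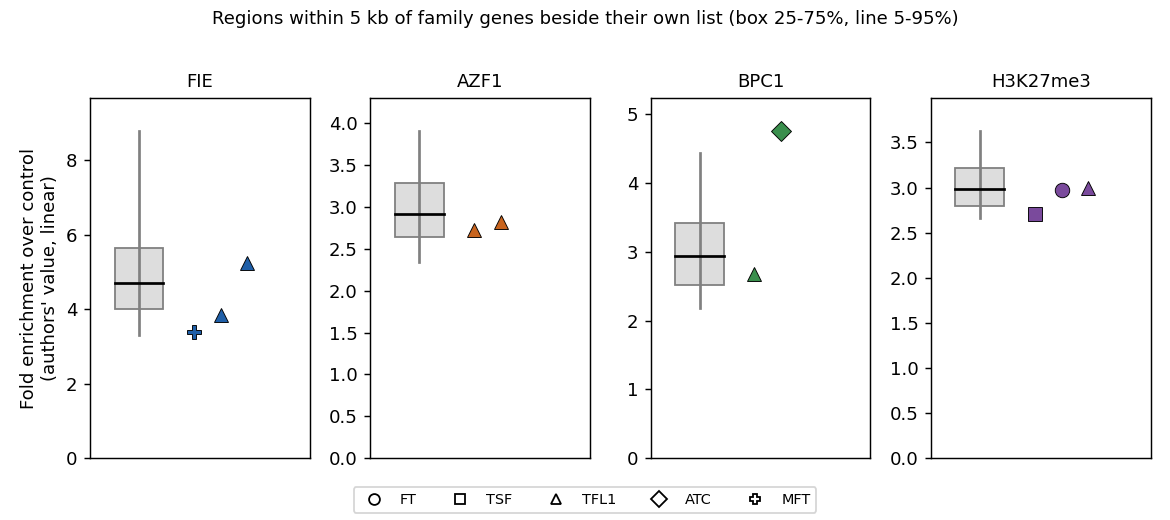
Fold enrichment, as the authors' linear ratio over control, of the 10 regions within 5 kb of family genes, each beside the nuclear regions of its own list. Boxes span 25% to 75% of the list, lines 5% to 95% and black bars the median, and axes differ between lists. The BPC1 region near ATC stands above the line of its list, and the other 9 lie on theirs, with the H3K27me3 region of TSF and the FIE region of MFT near the lower ends.

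The other genes of the florigen pathway gave a comparison inside the same lists. Of 32 genes around FT and TFL1, 19 had FIE, 11 AZF1, 12 BPC1 and 18 H3K27me3 within 5 kb, where the shares of all genes were 23.5%, 24.9%, 14.9% and 44.9%. These lists were chosen with earlier results of these data known. Of the 7 targets of the florigen complex at the shoot apex, 6 had both FIE and H3K27me3, and in all 6 the mark covered the whole gene. Over all genes, 23.5% had FIE and 44.9% H3K27me3 within 5 kb, and 11.8% were wholly covered. FIE and H3K27me3 regions that overlapped, as they did at these 6 targets, lay within 5 kb of 14.7% of all genes. SPL3 was the exception, with no region of any list. The factors were listed at fewer targets, with AZF1 within 5 kb of 3 of the 7 and BPC1 within 5 kb of 4. Over all genes the shares were 24.9% and 14.9%, and the target counts were not tested. LFY had neither factor, while SOC1 and FUL had both. SOC1, a MADS-box integrator of flowering signals, had FIE up to a fold of 6.53, AZF1 at 3.56 and BPC1 up to 3.97. FUL, which acts in the floral transition and in fruit, had FIE up to 11.71, AZF1 at 2.85 and BPC1 at 6.06.

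Of 20 regulators upstream of FT or TFL1, 11 had FIE, against 23.5% of all genes, and 9 had H3K27me3, a share near the 44.9% of all genes. AZF1 was listed at 7, against 24.9%, and BPC1 at 6, against 14.9%, while 7 had no region, against 37.7%. The mark covered the whole gene in 3 of the 20, against 11.8% of all genes. SVP was among these, with all 4 lists and FIE up to a fold of 12.72. CO, the photoperiod activator of FT, had an H3K27me3 region 0.488 kb from the gene (fold 2.66), which did not touch it. No protein region was listed within 5 kb of CO. TEM1, a repressor of FT, had FIE (up to 6.87), and AZF1 (3.34) and BPC1 (4.78) at 4.34 and 4.21 kb. The H3K27me3 region nearest to TEM1 was 5.65 kb away, just outside the window. Its relative TEM2 had FIE (up to 5.29) and an H3K27me3 region (2.94) 1.57 kb from the gene. Of the 5 transport and partner genes, 2 had FIE, a count too small to set apart from the 23.5% of all genes. BRC1, a TCP factor of axillary buds whose protein binds FT, had FIE up to 16.31, AZF1 at 2.71, BPC1 up to 6.09 and H3K27me3 at 4.09 over the whole gene. The bZIP gene FD, whose protein carries FT and TFL1 to their targets, had no region within 5 kb, and its paralogue FDP had H3K27me3 alone, 2.99 kb away.

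Among these 32 genes, 10 were wholly covered by H3K27me3, against 11.8% of all genes. A FIE region touched all 10, against 27.1% of all wholly covered genes, with a highest fold within 5 kb of 5.41 to 16.31. FT, TSF and TFL1 were covered in the same way and none was touched by a FIE region, where 0 of 3 is near that 27.1%. At TFL1, 2 FIE regions lay inside its H3K27me3 region, 1153 and 2742 bp from the gene. The count of 10 is over genes chosen for known roles in flowering, with earlier results of these data known. It was not tested.

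**Figure D4:**
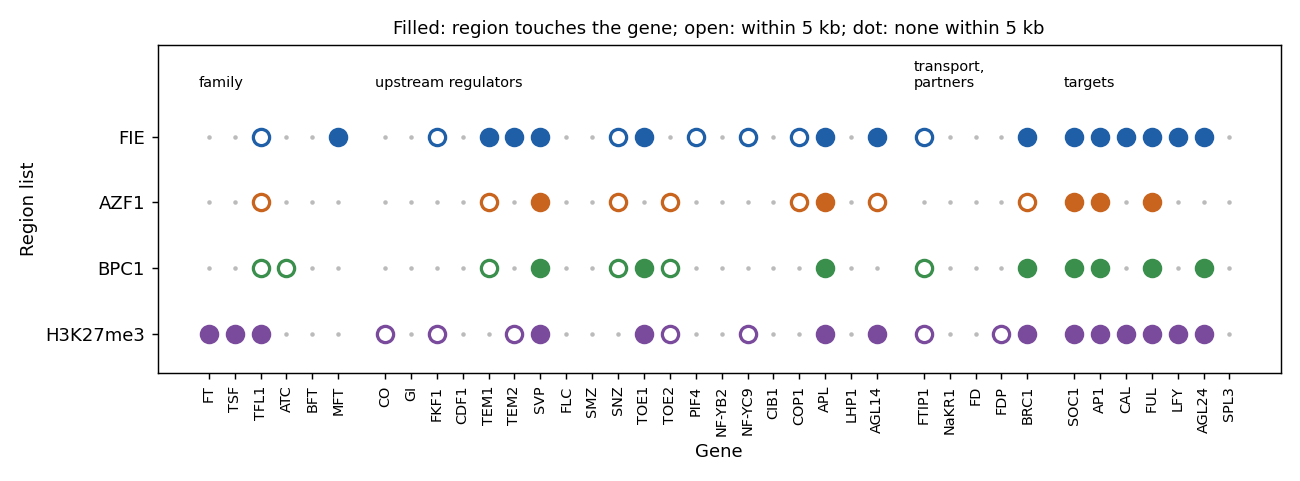
Presence of each list at the 6 family genes and at 32 other genes of the florigen pathway, with genes on the horizontal axis and lists on the vertical axis. Filled circles mark a region that touches the gene, open circles a region within 5 kb and dots none. The 6 florigen targets other than SPL3 have filled circles for FIE and H3K27me3, and FT, TSF and TFL1 have them for H3K27me3 only. TFL1 has open circles for FIE, AZF1 and BPC1.

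Genes most like the marked members were sought among genes with the same lists within 5 kb that another H3K27me3 region touched, by the distance in share of gene covered, log2 width and log2 fold of the H3K27me3 region, each in units of its SD over covered genes. For FT, 2230 genes met both conditions, and the closest were AT4G14370 (region of 9206 bp, fold 2.96, distance 0.0270) and the signalling peptide genes CLE5 and CLE6, which share a region (9227 bp, fold 2.98, distance 0.0628). For TSF the closest was AT5G45950 (3502 bp, fold 2.71, distance 0.0463). For TFL1, 605 genes met them, and the closest was the zinc finger gene ZFP8 (6234 bp, fold 3.02, distance 0.0652). The measure rests on 1 pooled list and does not weigh where in the region a gene lies.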

How the data were processed

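The deposited data are 4 region lists, for FIE, AZF1, BPC1 and H3K27me3. The submitters' processing notes name Bowtie2, bedtools, MACS2 (2.1.1.20160309) and TAIR10; settings and the combining of replicates are not stated there. The authors' files give per region the fold over control (a ratio), −log10 p, −log10 q and a score, found to be −log10 q times 10 without its decimals. The series design names input of the same accession as control for the proteins and H3 for H3K27me3.

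Regions on the 5 nuclear chromosomes were used with Python 3.11.15 and pandas 2.3.3, and distances were taken between region and gene edges, with the distance functions tested on simulated data. Gene positions came from a RefSeq table of TAIR10.1, taken to be numbered as TAIR10; no gene coordinate is printed. Shifting summits by 1 or 2 kb in gene-rich windows lowered the share inside genes, from 57.9%, 67.4% and 64.0% (FIE, AZF1, BPC1) to at most 45.8%, 53.3% and 49.9%. Family, pathway genes and comparisons were chosen with earlier results of these data known. Named genes were the family, its neighbours, a fixed pathway list and the nearest genes by likeness; APL, TOE1 and others are counted only. SPL3 was named after its values were seen. Alternatives were other distances, summits in place of regions, regions above the median −log10 q, and stricter overlap. Planned motif and protein comparisons were not run, since no sequence was used here.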

Additional observations from a re-analysis of the deposited data

How the results depend on the processing

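The counts of family genes depend on the distance read. FIE counts went from 2 genes to 1 with regions touching the gene (6.72%) and with 1 kb (9.95%), where MFT remained. With 10 kb (37.2%) they rose to 3, where FT was added. The absence of listed proteins at FT thus holds within 5 kb and not within 10 kb. AZF1 went from 1 to 0 with touching regions (6.70%). BPC1 went from 2 to 0 with touching regions (4.30%), 1 kb (6.07%) and 2 kb (8.19%). Overlapping FIE and H3K27me3 went from 1 to 0 with 1 kb (6.22%). H3K27me3 was at 3 genes for touching regions (19.3%), 1 kb (27.3%) and 2 kb (32.2%), and at 4 with 10 kb (60.7%), where ATC was added. Using only regions above the median −log10 q of each list gave 0 genes for FIE (12.8%) and 0 for H3K27me3 (26.6%). It gave 1 for BPC1 (ATC, 7.00%) and 0 for overlapping FIE and H3K27me3 (7.24%), and AZF1 stayed at 1 (11.9%). The FIE, BPC1 and H3K27me3 regions within 5 kb of FT, TSF, TFL1 and MFT are below those medians. With that filter the mean share under H3K27me3 was 0% for the florigen-like and 0% for the TFL1-like genes. With genes extended by 1 kb it was 93.0% for FT and TSF, because the TSF region ends within 1 kb of the gene. Summits in place of regions changed no count. No paired analysis was possible because the lists carry no values for single replicates, and for the same reason no replicate could be left out. Depth is unknown, which limits every statement of absence to the listed regions.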

Other observations

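Around TFL1 the lists hold more Polycomb regions than its own. On the lower-coordinate side, 6598 bp from the gene, lay an H3K27me3 region of 4356 bp (chromosome 5, 1013547 to 1017902) that touched AT5G03800, AT5G03810 and AT5G03820. Its fold of 3.65 was above 95.3% of the list, against 3.00 at TFL1, and its −log10 q was 22.1. A gap of 2758 bp separated it from the TFL1 region. It held FIE regions with folds of 3.72 to 4.94 and AZF1 regions with folds of 2.61 and 2.36. On the other side, 16.3 kb from TFL1, a region of 1795 bp at AT5G03885 (fold 2.97) held FIE, AZF1 and BPC1 together, with folds of 3.68, 2.50 and 2.77.

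At MFT, the H3K27me3 region 10063 bp away (chromosome 1, 6240257 to 6244220) lay over AT1G18140 (LAC1, a laccase gene), had a fold of 2.90 and contained the FIE region with a fold of 4.21 at 10376 bp.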
